A study of Rattus norvegicus with 4 samples.

Results

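The cytosolic ribosomal protein genes were examined in rat peritubular myoid cells, the contractile cells that wrap the seminiferous tubules. Members were the non-control probes whose gene name is Rpl or Rps with a number (optionally followed by a, x, y or l), Rplp1, Rplp2 or Arbp, the older name of Rplp0. The names gave 107 of the 41012 probes on the array, for 72 genes: 39 of the large subunit, 30 of the small subunit and 3 of the stalk. Both groups were cells isolated from testes of male rats aged 40 days and cultured for 4 days in medium with defined growth factors. The testosterone group (2 arrays) was given 1e-07 M testosterone in pulses, and the control group (2 arrays) was labelled as control. Total RNA was amplified with an oligo-dT primer carrying a T7 promoter, and the Cy3-labelled product was read on one-colour arrays. The question of the series is which genes respond to testosterone in the cells. Titles number the arrays of each group 1 and 2, and arrays are named below by group and number.

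Ribosomal proteins are built with the ribosomal RNAs into a large subunit, which forms the peptide bond, and a small subunit, which reads the messenger RNA. They are made in near-equal amounts, and their mRNAs are among the most abundant in growing cells. Many of these mRNAs begin with a C followed by a run of pyrimidines, the 5′ terminal oligopyrimidine tract, through which growth signals govern their translation as a set. Such control acts on translation, whereas the arrays measured RNA only.

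The start-site sequence is shown for members described below, some with the tract and some without, since the choice by name did not use it. All 72 names matched a RefSeq gene, Arbp through its older symbol, and 59 of them had an entry in the RefSeq promoter table of build GRCr8. Each line gives 15 bases before and 15 bases from the annotated start, on the gene's own strand, with the C and the pyrimidines that follow it in capitals where that C lay within 5 bases of the start:
Rplp0: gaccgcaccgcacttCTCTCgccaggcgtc
Rpl10a: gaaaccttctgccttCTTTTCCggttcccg
Rpl22: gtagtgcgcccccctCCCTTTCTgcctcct
Rpl35a: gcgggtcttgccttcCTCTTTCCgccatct
Rps7: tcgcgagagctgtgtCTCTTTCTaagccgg
Rps15: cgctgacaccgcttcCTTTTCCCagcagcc
Rps26: gagagccgccgggtcCTCTTTCgagtcttg
Rps10: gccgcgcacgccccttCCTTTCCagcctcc
Rpl29: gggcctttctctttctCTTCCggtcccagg
Rpl3: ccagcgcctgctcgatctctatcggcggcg
Rpl5: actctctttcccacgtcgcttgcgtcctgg
Rpl3l: gacctctggtgcctggtggggaggtccctt
Rpl21: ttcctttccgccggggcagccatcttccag
Rps19: cccgacttgtgcgcccgggaaaccccgtcg
The windows lie at chr12:46718376-46718405 on the minus strand for Rplp0, chr20:6390518-6390547 on the plus strand for Rpl10a and chr5:168117946-168117975 on the plus strand for Rpl22. Those of Rpl35a (chr11:81235007-81235036), Rps7 (chr6:50999431-50999460), Rps15 (chr7:10068101-10068130), Rps26 (chr7:1643390-1643419) and Rps10 (chr20:5700730-5700759) are on the minus strand. So are those of Rpl3 (chr7:113507976-113508005), Rpl5 (chr14:1995211-1995240) and Rpl21 (chr12:13386139-13386168), while those of Rpl3l (chr10:14258431-14258460), Rpl29 (chr8:115947628-115947657) and Rps19 (chr1:89608673-89608702) are on the plus strand. In the first 7 windows the C stands at the annotated start, in those of Rps10 and Rpl29 it stands 1 base later, and the last 5 hold no such tract within 5 bases. A C at the start followed by 4 bases that are each C or T was found on the gene's strand in 23 of the 59 members (39.0%) and in 722 of 27457 genes in the table (2.63%). These letters depend on where RefSeq places the start, and allowing the C within 5 bases of it gave 37 of the 59 members (62.7%) and 4656 of the 27457 genes.

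No ribosomal protein probe passed the test. With limma and Benjamini-Hochberg adjustment over 25881 tested probes, 0 of the 107 were called higher and 0 lower with testosterone, where 0% of all probes were called in either direction. At an unadjusted p under 0.05 there were also 0 of 107, against 0.804% of all probes, and the smallest unadjusted p of a member in limma was 0.205. In 0 members were both testosterone arrays above both controls, against 6.13% of all tested probes, and in 4 they were below both controls, against 8.94%. These shares cannot be compared directly, since 64 of the members were saturated on every array and followed the scaling, as described below. The groups overlapped in all 64, and in all 262 tested probes saturated on every array. Of the 38 unsaturated members 0 were above and 4 below, against 6.21% and 9.05% of all unsaturated tested probes. The counts over all 107 members depended on the scaling, with 10 above and 17 below under quantile normalization and 18 below with each array's median as the scale. The shares of all tested probes under those scalings were not taken, so these counts are not read as a shift of the family. Of the 107 differences 66 were positive, against 47.7% of all tested probes, a split that saturation bears on as described below. The smallest 2-sided p of an exact permutation test in this design is 0.333, so none was run. Whether the arrays of a group stand for separate animals or cultures is not stated, and the p-values then cover the spread between arrays alone, which may be technical. In whole-culture RNA, fewer cells of a type and less RNA per cell cannot be told apart.

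Levels below are log2 processed signals relative to the 75th percentile of the array, and differences are testosterone minus control on that log2 scale. All 107 probes were well above background on at least 3 arrays, so no member was lost to the filter on low signal. The same filter was passed by 106 on all 4 arrays, the exception being the probe of Rps19. Of 10 listed smooth muscle markers 8 were named on the array, and Acta2 and Myh11 were not. Well above background on all 4 arrays were 6. Of these Myl9 stood at 5.68 to 6.11, Des at 1.68 to 2.46 and Actg2 at 0.17 to 1.39. Cald1 stood at -0.80 to -0.51, Smtn at -4.04 to 0.10 over 2 probes and Tagln at -4.63 to -2.75. Lmod1 was above background on 3 arrays, and Cnn1 was not on any. Of 9 listed Sertoli cell markers 7 were named on the array, and 4 were well above background on all 4 arrays. Gata4 stood at 3.19 to 3.86, Clu at 2.13 to 3.09, Inha at -1.37 to -1.19 and Amh at -4.43 to -4.15. Of 6 Leydig cell markers 5 were well above background on all 4 arrays and Lhcgr was not on any. Star stood between 5.53 and 6.31 and Insl3 between 5.25 and 5.74. Hsd3b1 stood between -0.94 and 0.37 over 2 probes, Cyp11a1 between -3.33 and -2.20 and Cyp17a1 between -3.96 and -2.66. All 6 macrophage markers named on the array were well above background on all 4 arrays. Cd68 stood between 5.92 and 6.54, Emr1 between 1.09 and 2.20 and Csf1r between -1.28 and -0.64. Tyrobp stood between 4.97 and 5.71 at 1 probe and between -2.38 and -1.82 at the other. Over 2 probes each, Cd14 stood between -1.55 and 2.51 and Cd163 between -4.19 and -1.75. Of 5 listed endothelial markers 4 were named on the array, and Tek was not above background on any. Kdr stood between -2.11 and 0.19, Vwf between -2.01 and -1.23 and Cdh5 between -3.94 and -3.26. Of 9 listed germ cell markers 8 were named on the array and 5 were tested. Their summed linear signal, each relative to the 75th percentile, was 0.499 and 0.428 on the number 1 arrays of testosterone and control and 5.87 and 5.99 on the number 2 arrays. The spermatid genes Tnp1, Tnp2, Prm1 and Odf1 were higher on both number 2 arrays, and Ddx4 was not.

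Saturation decided what could be measured for most of the family. On all 4 arrays 64 probes of 53 genes were saturated, meaning that the scanner had reached its ceiling of 65535. For 43 of the 72 genes every probe was saturated on every array. Between 75 and 76 saturated spots per array belonged to members, which was 20.8% to 21.9% of all saturated non-control spots, although members made up 107 of 41012 probes. Among these genes were Rplp1 and Rplp2, which form the flexible part of the stalk that recruits translation factors, and Rpl11, which joins Rpl5 and the 5S RNA in a particle that can bind Mdm2. Rps6, the ribosomal target of S6 kinase, and Rps27a, made as a fusion to ubiquitin, were saturated too. So were Rpl10, Rpl13a, Rpl23, Rpl26, Rpl38, Rpl39, Rps3 and Rps14. Rpl10l, Rpl39l and Rps27l were not named on the array.

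The saturated probes followed the scaling of the arrays. Median processed signals of saturated member spots were 63307 and 63121 on testosterone arrays 1 and 2 and 62337 and 63633 on control arrays 1 and 2. The 75th percentiles taken off were 8.85 and 8.47 for testosterone and 8.71 and 8.64 for control, so that the highest percentile belonged to testosterone 1 and the lowest to testosterone 2. Levels then ran in the opposite order: Rps6 stood at 7.05 and 7.44 with testosterone and 7.12 and 7.24 without, and Rplp2 at 6.98 and 7.48 against 7.04 and 7.25. Of the 64 probes, 58 had the order testosterone 1, control 1, control 2, testosterone 2 from low to high. Testosterone was below control in number 1 for 64 of 64 and above it in number 2 for 64 of 64, and over all 262 probes saturated on every array it was above control for 1 in number 1 and for 262 in number 2. Their median difference was 0.03, and 43 were positive and 21 negative. For these probes only a bound on the level was measured, the groups cannot be compared, and no fold is given.

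**Figure D1:**
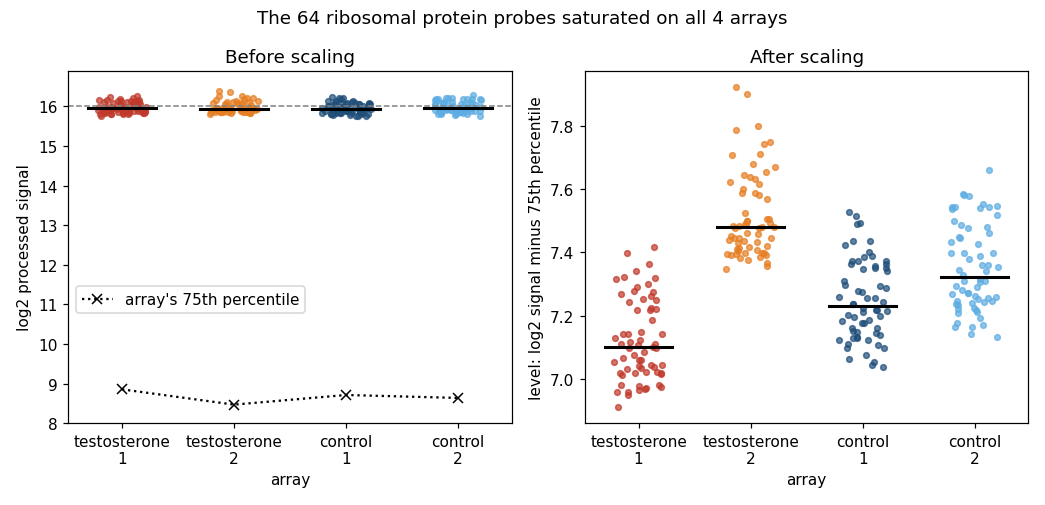
The 64 ribosomal protein probes saturated on all 4 arrays, with the log2 processed signal before scaling on the left (dashed line, scanner ceiling of 65535; crosses, the 75th percentile of each array) and the level after scaling on the right. Points are probes and black bars are medians; the signals sit together near the ceiling on the left, while on the right the medians run from 7.10 on testosterone 1 to 7.48 on testosterone 2 in the reverse order of the percentiles.

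A further 5 probes, of Rpl15, Rpl18, Rpl29, Rps4x and Rps19, were saturated on 1 to 3 arrays. The Rpl29 probe that was saturated on control 1 alone stood at 6.99 and 7.17 with testosterone and 7.20 and 7.16 in controls. Rps4x, the X-linked copy of a small subunit protein that has a Y-linked counterpart in some mammals, was saturated on all arrays but testosterone 2 and stood at 7.17 and 7.60 against 7.28 and 7.38. The Rpl15 probe with the same pattern of saturation read 6.96 and 7.28 against 7.11 and 7.16. The Rpl18 probe was saturated on testosterone 2 alone. Since readings at the ceiling are bounds, no difference is given for these probes other than Rps19, whose value is given next with its limit.

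Rps19, the gene most often mutated in Diamond-Blackfan anaemia, read very low on 1 array. Its probe (chr1:80177542-80177601, rn4) stood at 7.17 and 7.57 with testosterone, at 7.41 on control 2 and at -5.07 on control 1. It was saturated on the 3 high arrays and not well above background on control 1, and it was printed in column 80 of the array. The difference of 6.20 had a 95% interval from -4.93 to 17.33 and rested on that spot. Since the other 3 readings were at the ceiling, the size of the gap was not measured. Rps19 was called by limma without control 2, where control 1 alone stood for the controls, and not without control 1. No other member read at least 3 log2 units lower on an array than the median of the other 3. Over all tested probes 0.653% did so on at least 1 array and 0.572% on control 1.

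In columns 57 to 85, where control 1 carried its low spots, 35 members were printed. After Rps19, the member furthest below the other arrays on control 1 was a probe of Rpl21, a large subunit protein with 5 probes. This probe in column 77 (chrX:21527921-21527980) stood at 6.80 and 7.16 with testosterone and at 5.34 and 6.99 in controls, with control 1 at 1.65 below the median of the others. Its difference of 0.82 had a 95% interval from -0.76 to 2.40. The other 3 unsaturated Rpl21 probes, also in those columns, differed by 0.01, 0.07 and 0.04, and 1 of them covers listed positions that overlap those of the deviating probe. Rpl19, in column 73, read 6.94 and 7.07 against 6.56 and 7.02, with control 1 again the lowest array. Outside these columns no member read over 1 log2 unit below the other arrays on control 1.

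**Figure D2:**
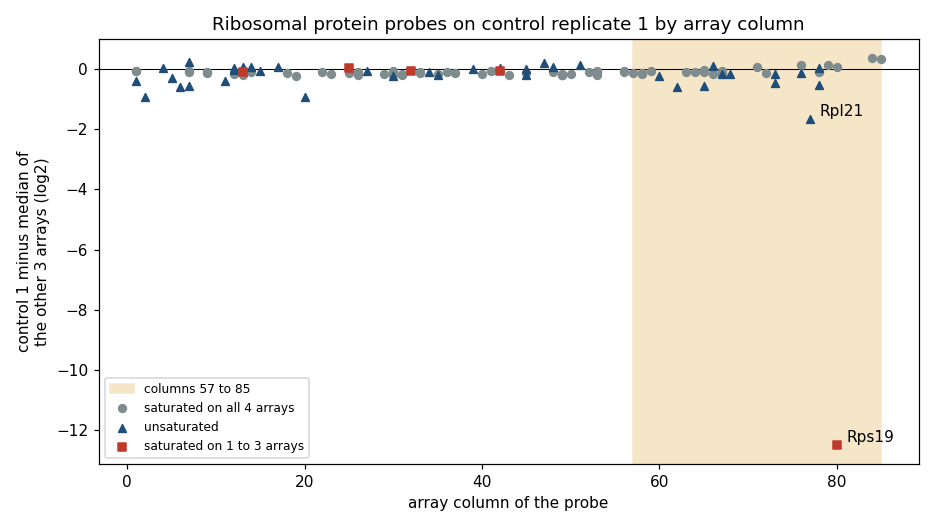
Control 1 minus the median of the other 3 arrays (log2) for each ribosomal protein probe, by its column on the array, with columns 57 to 85 shaded and symbols by saturation. Rps19 in column 80 and 1 Rpl21 probe in column 77, at -1.65, lie furthest below 0.

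The 38 probes that were flagged as saturated on no array, of 27 genes, are the part of the family in which the groups were compared. Of these, 8 lay near the ceiling, as described below, where a difference may be limited in the same way. In 0 of them were both testosterone arrays above both controls, against 6.21% of all unsaturated tested probes. Their differences were positive in 21 and negative in 17, with a median of 0.02, while 47.5% of all unsaturated tested probes were positive and the median over them was -0.01. With each array's median in place of the 75th percentile, 14 were positive and 24 negative. Outside columns 57 to 85 there were 26 such probes of 22 genes, with 13 positive and 13 negative differences, a median of -0.01 and a lowest difference of -0.24. The median half-width of their 95% intervals was 0.59, so that a change of about 1.5-fold in a typical probe would not have been told from 0. Every one of the 38 intervals included 0. By subunit, 12 of 26 unsaturated large subunit probes and 8 of 11 small subunit probes were positive, with medians of -0.04 and 0.07, and the stalk had 1 probe.

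**Figure D3:**
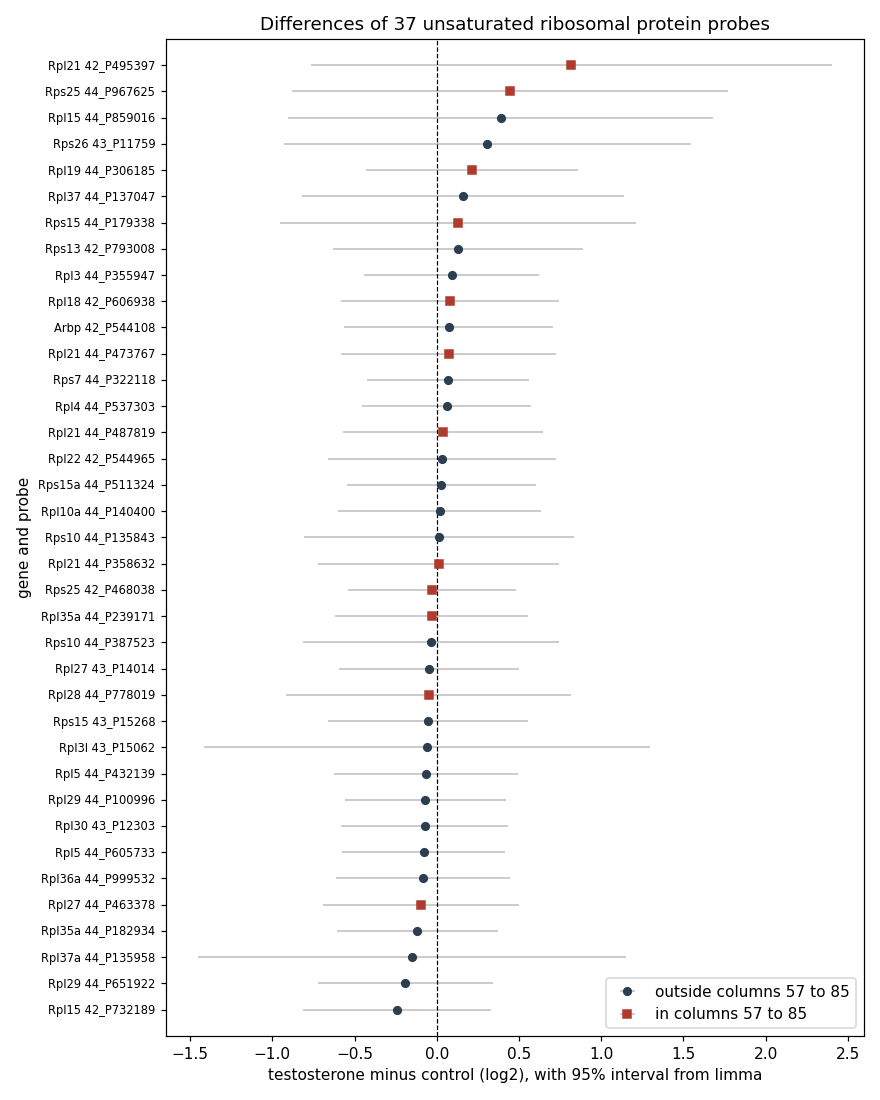
Testosterone minus control (log2) for 37 of the 38 unsaturated ribosomal protein probes with 95% intervals from limma, circles for probes outside array columns 57 to 85 and squares for those inside. All intervals cross 0, and the largest difference, 0.82, belongs to the Rpl21 probe in column 77.

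The stalk base was measured by Arbp, which encodes P0, the protein that anchors Rplp1 and Rplp2 to the large subunit. It stood at 3.99 and 4.34 with testosterone and at 3.93 and 4.24 in controls, and differed by 0.07 (95% interval -0.56 to 0.71; chr12:42317788-42318666, a listed span longer than the probe, as for a probe across an exon junction). Both number 2 arrays were above both number 1 arrays, and the groups overlapped.

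Among large subunit proteins, Rpl3, which lies close to the site of peptide bond formation, stood at 6.17 and 6.09 with testosterone and 6.16 and 5.92 in controls and differed by 0.09 (-0.44 to 0.62). Rpl4 read 6.50 and 6.35 against 6.43 and 6.30, and Rpl22 read 6.32 and 6.84 against 6.44 and 6.65. In all 3 the groups overlapped. Rpl3l, the counterpart of Rpl3 known from heart and skeletal muscle, was above background on all arrays, at -2.75 and -1.89 against -2.83 and -1.70, with both number 2 arrays the higher ones. Its difference was -0.06.

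The 4 probes with both testosterone arrays below both controls were all of the large subunit: 2 of Rpl29 and 1 each of Rpl35a and Rpl5. They were 4 of the 38 unsaturated members, where 9.05% of all unsaturated tested probes lay apart in that direction. Rpl29, a large subunit protein also known to bind heparin, read 5.97 and 5.82 with testosterone and 6.19 and 5.98 in controls at 1 probe (chr8:111574270-111575050), a difference of -0.19 (-0.72 to 0.34). At the other probe, whose listed start lies 20 bases away, so that both cover some of the same bases, it read 5.92 and 6.01 against 6.05 and 6.02, a difference of -0.07. At that probe the groups were parted by 0.01, between testosterone 2 and control 2.

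Rpl35a, whose loss also causes Diamond-Blackfan anaemia, stood at 5.64 and 5.70 with testosterone and at 5.75 and 5.83 in controls, a difference of -0.12 (-0.61 to 0.37; listed at chr12:6574314-6574373). Its second probe, in column 60, read 4.32 and 4.62 against 4.38 and 4.61, and there the groups overlapped. Rpl5, the partner of Rpl11 in the 5S particle, read 6.59 and 6.57 against 6.73 and 6.59 at the probe that lay apart (-0.08; -0.58 to 0.42) and 6.41 and 6.10 against 6.36 and 6.28 at another unsaturated probe (-0.06). At the first of these testosterone 1 and control 2 were both 6.59 to 2 decimals, and the third Rpl5 probe was saturated. Thus in both genes 1 unsaturated probe lay apart and another did not.

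The largest negative difference outside columns 57 to 85 was that of an Rpl15 probe (chr15:9085404-9085463), which read 0.69 and 0.95 with testosterone and 0.94 and 1.18 in controls (-0.24; -0.81 to 0.33). Testosterone 2 lay just above control 1, and within each replicate number testosterone was the lower array, by 0.25 and 0.23. The Rpl29 probe at -0.19, described above, came next, and then Rpl37a with -4.32 and -2.99 against -3.63 and -3.38 (-0.15; -1.45 to 1.15), where the testosterone arrays were both the lowest and the highest.

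Among small subunit proteins the probe with the narrowest interval was that of Rps7, which takes part in 18S RNA processing and can bind Mdm2. It read 5.34 and 5.45 with testosterone and 5.31 and 5.35 in controls and differed by 0.07 (-0.42 to 0.56; listed at chr5:169076643-169076699). Rps13 stood at 6.50 and 7.12 against 6.58 and 6.79 (0.13; -0.63 to 0.89). Rps26, which contacts the messenger RNA near its exit from the ribosome, read -0.76 and 0.11 against -1.10 and -0.17 (0.31; -0.93 to 1.54). For Rps26 testosterone was the higher array within each number, by 0.34 and 0.27, yet testosterone 1 lay below control 2. Rps10, which is ubiquitinated when ribosomes stall, differed by 0.01 and -0.04 at its 2 probes, each with both number 2 arrays above both number 1 arrays.

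**Figure D4:**
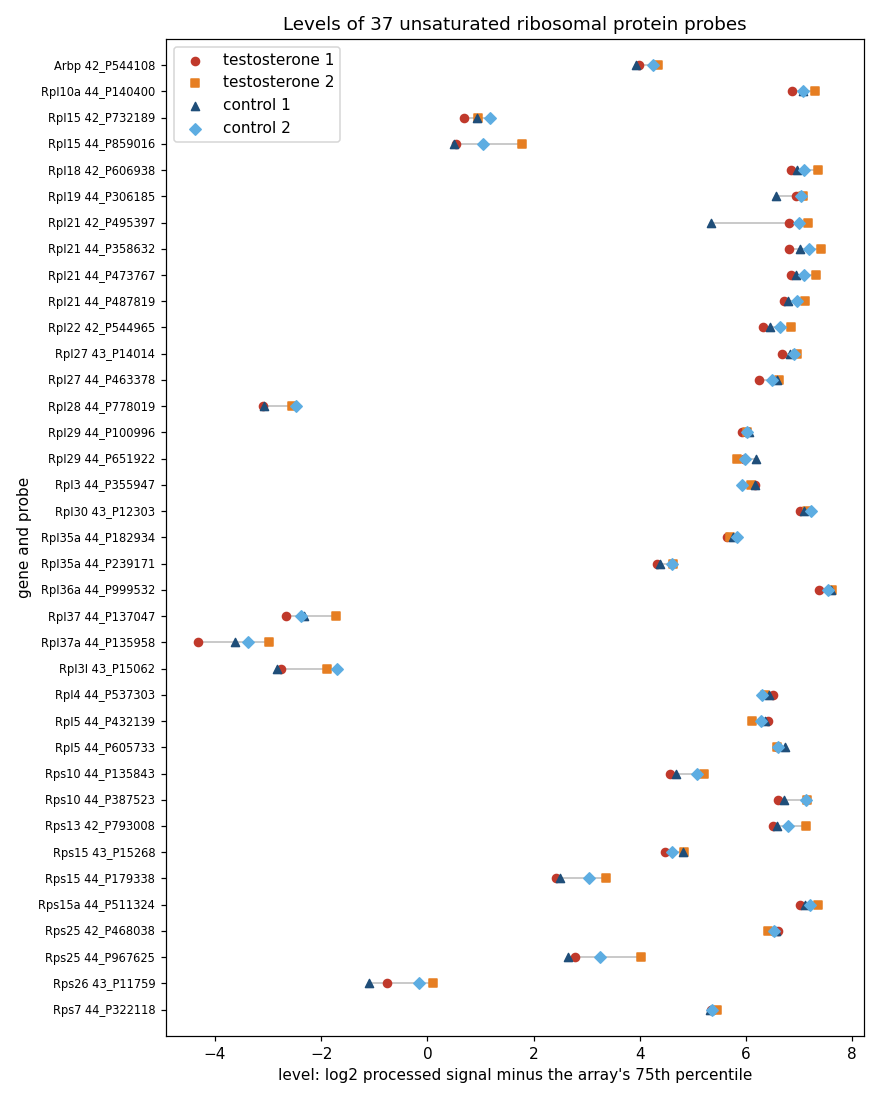
Level on each of the 4 arrays (log2 processed signal minus the array's 75th percentile) for 37 of the 38 unsaturated ribosomal protein probes, sorted by gene name, with a grey line from the lowest to the highest array. The testosterone symbols do not sit together: testosterone 2 lies above testosterone 1 in 31 of the 37 rows.

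Arrays of 1 group differed by replicate number in most members. Testosterone 2 was above testosterone 1 in 32 of the 38 unsaturated members (84.2%), against 57.3% of all unsaturated tested probes, and control 2 above control 1 in 26 (68.4%), against 51.9%. Within number 1 the testosterone array was the higher in 13 of the 38, and within number 2 in 28, while over all unsaturated probes the shares were 39.6% and 54.8%. Median differences within number 1 and number 2 were -0.08 and 0.14. The median difference of the 38 was 0.23 without testosterone 1 and -0.18 without testosterone 2, and it was -0.05 without control 1 and 0.09 without control 2, so its sign turned with the array left out. The germ cell marker sums given above also differed by number, and their part in this was not tested. Of the unsaturated members, 8 lay within 0.5 of the array's median saturated level on all 4 arrays, and testosterone 2 was above testosterone 1 in 8 of these 8. The Rpl36a probe among them stood at 7.37 and 7.61 with testosterone and 7.60 and 7.55 in controls. It was above that level on every array. Among the 30 further from the ceiling it was above in 24, and these had 15 positive and 15 negative differences.

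A group of probes designed from expressed sequence tags, single-pass cDNA reads, is described for the spread between its arrays. This group was picked after the values were seen, and dim probes of other design spread as widely: the SD was 0.62 with testosterone and 0.66 in controls for Rps26 (n = 2) and 0.61 and 0.80 for Rpl3l. The unsaturated ones include those of Rpl15, Rpl37, Rps15 and Rps25. For Rps15, Rps25 and Rpl37 the listed coordinates of the tag probe run in the opposite order to those of the gene's other probe. Rps25, a protein of the small subunit needed by some viral internal ribosome entry sites, has a pair of probes listed at the same 60 bases in opposite order (chr8:47375104-47375163). The probe in the gene's order read 6.61 and 6.41 with testosterone and 6.55 and 6.52 in controls (-0.03; -0.54 to 0.48). The one in opposite order read 2.77 and 4.03 against 2.65 and 3.26 (0.45; -0.88 to 1.77), with both number 2 arrays above both number 1 arrays.

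The tag probe of Rpl15 (listed at chr18:50270405-50270464, while the gene's other probes are on chromosome 15) read 0.54 and 1.77 against 0.49 and 1.05 (0.39; -0.91 to 1.68). That of Rpl37 read -2.67 and -1.71 against -2.33 and -2.37 (0.16; -0.82 to 1.14), and that of Rps15, in column 65, 2.43 and 3.37 against 2.49 and 3.05 (0.13; -0.96 to 1.21). Testosterone 2 was the highest array in each of these 4 tag probes. What RNA a probe in the opposite order detects was not tested, and its level is not set against that of the gene's other probe.

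Probes of the same gene share the RNA and are not replicates, and 25 genes had more than 1. The range of the difference over the probes of a gene had a median of 0.09, and it exceeded 0.25 in Rpl15, Rpl21 and Rps25, among others. In Rpl21 the far probe was that of column 77, and in Rpl15 and Rps25 it was the tag probe. In 16 of the 25 genes the probes gave differences of both signs.

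Ribosomal protein genes have many processed copies elsewhere in the genome, from which a 60-base probe may not separate them. Of 106 members with a listed chromosome, 17 probes of 10 genes were listed in rn4 on a chromosome other than that of the named gene in GRCr8, and 12 of the 17 were unsaturated. They include both probes of Rps10, Rpl35a and Rpl36a, all 5 of Rpl21 and the single probes of Rps7 and Rpl10a, so values under these names are uncertain as to which copy they read. A further feature of the listings is a span over 61 bases, found for 21 probes of 18 genes.

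Other genes of translation were taken from lists of known members and are described over probes that were unsaturated and outside columns 57 to 85. Of all such tested probes 5.39% had both testosterone arrays above both controls and 9.33% below. Differences were positive in 7980 of these 16981 probes, with a median of -0.01. None of the list members was called by limma at an adjusted p under 0.05, and none had an unadjusted p under 0.05. Of 6 probes of ribosome-associated proteins 1 was positive and 5 negative, with a median of -0.05. Btf3, part of the complex that meets the emerging peptide, read 3.96 and 3.87 against 3.99 and 3.96 at a probe that lay apart (-0.06). There testosterone 1 and control 2 were both 3.96 to 2 decimals. At another Btf3 probe, with 3.60 and 3.39 against 3.70 and 3.39, the groups overlapped. A further one, in column 62 and so outside these counts, lay apart lower (-0.07). Tpt1 was the positive one, at 0.08, and Rps6kb1, the kinase of Rps6, differed by -0.04.

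Ribosome assembly factors gave 6 positive and 12 negative differences over 18 probes, with a median of -0.02. Fbl, the methyltransferase of ribosomal RNA, read 7.00 and 7.11 with testosterone and 7.17 and 7.16 in controls (-0.11; -0.60 to 0.38), and the groups did not overlap. Ubtf, which activates transcription of ribosomal RNA genes, differed by -0.13, Nolc1 by 0.12 and Rrs1 by 0.07. Translation factors were split evenly, with 16 positive and 15 negative over 31 probes and a median of 0.01. The cap-binding protein Eif4e read 0.41 and 0.41 against 0.66 and 0.49 at 1 probe (-0.16; -0.67 to 0.34), lower on both testosterone arrays. Its brighter probe, in column 68 and so outside these counts, read 3.61 and 3.75 against 3.60 and 3.60 (0.08; -0.42 to 0.57). There both testosterone arrays were higher, so the probes of Eif4e lay apart in opposite directions. The helicase Eif4a1 differed by -0.29, Eif4b by 0.16 and Eif4g2 by 0.11, each at 1 of several probes, with overlapping groups.

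The mitochondrial ribosomal proteins, which belong to a separate ribosome inside the organelle, had more negative than positive differences. Over 51 probes 16 were positive and 35 negative, with a median of -0.05, 0 lay apart higher and 7 apart lower. Among all such tested probes 7980 of 16981 were positive, with a median of -0.01. Mrpl40 read -1.33 and -1.44 with testosterone and -1.19 and -1.17 in controls (-0.21; -0.70 to 0.28). Mrpl43 differed by -0.34, Mrpl21 by 0.27 and Mrps5 by 0.16, each with overlapping groups. Of the 50 well above background on all 4 arrays, 15 were positive, and 4 were with each array's median as the scale. Under that scale the median of all tested probes was lower as well. The difference between the mitochondrial and cytosolic sets was not tested.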

How the data were processed

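Per the file headers, Feature Extraction 11.5.1.1 wrote the scanner files (version 10.5 per the submitters' processing notes), and probe positions are in rn4. The deposited files give each spot's intensity on a linear scale as processed signal, mean signal and background, with flags for saturation, outliers and signal well above background. The authors' deposited log2 table equalled the log2 processed signal minus 8.79 and 8.38 (testosterone 1 and 2) and 8.63 and 8.55 (control 1 and 2) over 40749 probes printed once, with column medians of -3.61, -3.34, -3.62 and -3.45, so that its scale, centring and direction are known.

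From the log2 processed signal of each array its 75th percentile over 43379 non-control spots was taken off. Saturated spots stayed in, outlier spots did not, and spots of 1 probe were averaged. A probe was tested where a group had it well above background on both of its arrays and no value was missing: 25881 probes, with limma 3.58.1 in R 4.3.3 over 2 testosterone and 2 control arrays, no covariate, Benjamini-Hochberg adjustment and a threshold of 0.05. The script was tested on simulated data. Members and lists were chosen with earlier results of these data known, so no list was tested. Genes were named by rule: fixed genes, the 6 largest differences each way among unsaturated probes outside columns 57 to 85 (groups apart first), probes at least 3 log2 units low on 1 array, up to 4 partly saturated probes, and 2 each way from each list. Rpl4, Rpl18, Rpl19, Rpl21, Rpl36a, Rps10, the tag probe of Rps15 and further probes of named genes were added after their values were seen.

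Alternatives were another background correction (normexp, offset 50) with and without quantile normalization, median scaling, the authors' table, other filters and units, a replicate block and leaving out each array. All arrays were on 1 slide, so the slide could not enter as a block. The 4 arrays limit the precision. Start-site sequences came from RefSeq (GRCr8). Probe and protein sequences, and an rn4 annotation of exons and UTRs, were not used here. Values of 1 ribosomal protein gene are not reported here, although its probes are in the counts.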

Additional observations from a re-analysis of the deposited data

How the results depend on the processing

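Under 17 alternatives the number of ribosomal protein probes called by limma stayed at 0 in each direction, except without control 2, where 1, Rps19, was called higher (range without each array 0 to 1 higher, 0 to 0 lower; all probes 0 to 48 higher and 0 to 3 lower). The median difference of members, 0.03, ran from -0.18 to 0.23 when each array was left out, negative without testosterone 2 or control 1, and from -0.04 to 0.04 otherwise. Members apart higher numbered 0 to 92 and apart lower 6 to 93 without each array in turn, the 92 without testosterone 1 and the 93 without testosterone 2. Of the 64 members saturated on every array, 58 had testosterone 1 below both controls and testosterone 2 above both, in the order control 1, control 2. These 58 followed the scaling of the arrays and so lay apart once either testosterone array was left out. The shares of all tested probes without each array were not taken, so these counts are not read as a shift of the family. With quantile normalization 10 lay apart higher and 17 lower, and with median scaling 18 lay lower. With the brightest probe of each gene 1 lay apart lower, and likewise 1 with the mean of unsaturated probes of each gene. For 43 of the 72 genes every probe was saturated on every array, and in those the groups overlapped. Shares of all probes or genes under these scalings and units were not taken either. These counts too are not read as a shift of the family. The median of the 38 unsaturated members was -0.05 with median scaling, where that of all tested probes was -0.07. The cause was not tested. Rpl5, the probe that lay apart, turned to 0.002 under quantile normalization. Members low on 1 array remained 1 at a threshold of 2 log2 units. The start-site tract was found in 42.4% with 3 pyrimidines and in 62.7% with the C within 5 bases. Same-numbered arrays deviated together (r = 0.59 over 24489 probes), but the labels do not tie the numbers to animals; with a replicate block 0 members were called and the median stayed at 0.03. Saturation limits 64 probes to a bound. A lone array left in a group was assumed to vary like the other group. Slide as a block was not run.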
